A study of Mus musculus with 6 samples.

Results

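Efferocytosis is the engulfment of dying cells by phagocytes, and the genes described here are 10 receptors and bridging proteins that recognize the dying cell. They were selected by name from the gene tables, which hold 46078 genes. *Axl*, *Mertk*, and *Tyro3* encode the TAM receptor tyrosine kinases, and *Gas6* and *Pros1* encode the ligands of these kinases. *Mfge8* encodes a bridging protein for integrins, and *Megf10*, *Timd4*, *Stab2*, and *Adgrb1* encode further receptors for dying cells. Of the 10 genes, 9 held enough counts to be tested, and *Timd4* did not.

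Tissue for RNA-Seq came from wild-type male C57BL/6J mice at 7 weeks after stroke, as 3 infarcts and 3 samples of contralateral cortex. Stroke was produced in the right hemisphere by distal middle cerebral artery occlusion with hypoxia (DH), and all 6 tissue samples came from animals that had this stroke. Sample labels give an age of 3 months and list no treatment, and they do not say which infarct and contralateral cortex shared a mouse or whether a sample was pooled. Infarcts were recognized by eye and cut out by hand, and the matching cortex of the other hemisphere was used for comparison. The question addressed is which of these genes differ between the chronic infarct and intact cortex.

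A dying cell moves phosphatidylserine to its outer surface, and this lipid is the signal that most of these receptors read. TIM-4, stabilin-2, and BAI1 (encoded by *Timd4*, *Stab2*, and *Adgrb1*) bind the lipid directly, whereas GAS6, protein S, and MFG-E8 bind it and form a bridge to TAM receptors or to integrins. In the brain, AXL and MERTK are known from microglia and macrophages, MERTK and MEGF10 also from astrocytes, and TYRO3 and BAI1 also from neurons.

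Counts on genes ranged from 12146959 to 13427057 in infarcts and from 11943570 to 19933962 in contralateral cortices. Levels are given as CPM, which are counts scaled to library size with edgeR's trimmed mean of M values (TMM), or as TPM, which are also divided by gene length, where genes of different length are compared. A gene was called when edgeR's quasi-likelihood test gave an adjusted *p* (Benjamini-Hochberg) below 0.05 and the fold change exceeded 2. By this rule 25.7% of the 15554 tested genes were higher in infarcts, and 20.9% were lower. Neuron markers served as a check of the regions: 8 of 8 were lower in infarcts (median log2 fold change -2.98, from -3.84 for *Snap25* to -2.41 for *Gad2*), and their summed level was 648, 969.6, and 1732 CPM in infarcts 1, 2, and 3 against 9371 to 10112 CPM in contralateral cortices.

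Among the efferocytosis genes, 8 of the 9 tested were called in either direction, beside 46.6% of all tested genes, with 6 higher in infarcts, 2 lower, and 1 not called. *Axl*, *Mertk*, *Gas6*, *Pros1*, *Mfge8*, and *Stab2* were the higher genes, and *Tyro3* and *Adgrb1* were the lower genes. The 2 lower genes of 9 tested are 22.2%, close to the 20.9% of all tested genes called lower, so their number is no result about this group. The 6 higher genes are 66.7% of those tested, beside the 25.7% of all tested genes. Because the group was chosen with earlier results of these data known, this is a description and not a test. *Stab2* passed the filter on low counts only through its infarct libraries, and 5 genes were called higher when at least 10 counts were required in every library. The median log2 fold change was 1.69 over the 9 tested genes and 0.03 over all tested genes. Among the 9 tested genes, all infarct values lay above all contralateral values for 7, a pattern found in 37.6% of all tested genes, and below them for 2, a pattern found in 34.7%, and the untested *Timd4* was also above. These are bulk tissue values, in which fewer cells of a type and less RNA per cell cannot be told apart.

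**Figure D1:**
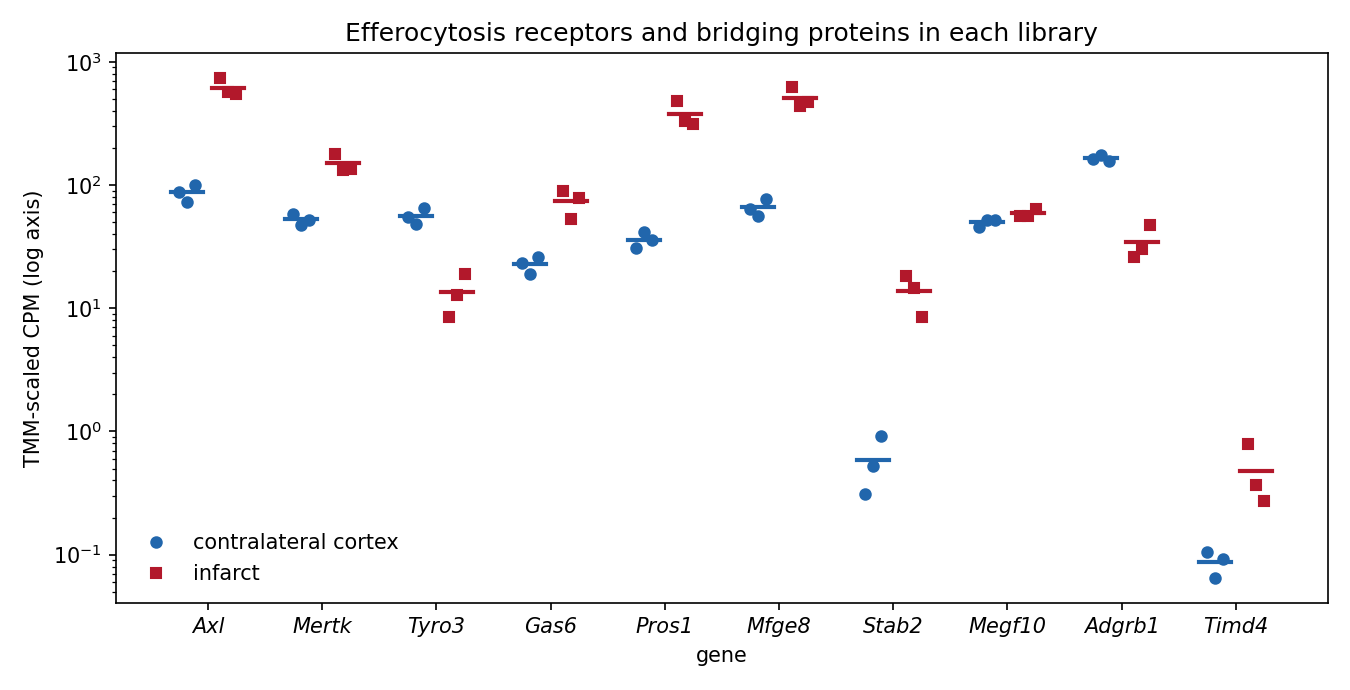
Level of each gene in each library, in TMM-scaled CPM on a log axis. Circles are the 3 contralateral cortices, squares the 3 infarcts, and horizontal lines the means of each region (*n* = 3). Infarct values lie above contralateral values for 8 genes, with a narrow gap for *Megf10*, and below them for *Tyro3* and *Adgrb1*.

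*Axl* (chr7:25757273-25788705, minus strand, here and later by GENCODE M21 on GRCm38), whose product is a receptor kinase induced in activated phagocytes, had 738, 569, and 545 CPM in infarcts 1, 2, and 3 against 88.4, 72.9, and 101 CPM in contralateral cortices 1, 2, and 3. Every infarct was well above every contralateral cortex. The means were 617 ± 105 and 87.3 ± 13.9 CPM (SD, *n* = 3), a log2 fold change of 2.82 ± 0.20 (SE; edgeR adjusted *p* = 1.72e-06). *Mertk* (chr2:128698956-128802894, plus strand), the receptor of the same family that resting phagocytes use, had 179, 133, and 136 CPM in infarcts against 58.6, 47.7, and 52.1 CPM in contralateral cortices. The regions were again free of overlap, although the gap was smaller than for *Axl*. The log2 fold change of *Mertk* was 1.50 ± 0.17 (SE; edgeR adjusted *p* = 3.52e-05), or 2.83-fold.

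*Tyro3* (chr2:119797733-119818104, plus strand), the TAM receptor most abundant in neurons, went the other way. It had 8.52, 12.9, and 19.0 CPM in infarcts 1, 2, and 3, and 55.1, 48.3, and 64.5 CPM in contralateral cortices. All infarcts were below all contralateral cortices, and infarct 1 was the lowest. Mean levels were 13.4 ± 5.25 and 56.0 ± 8.14 CPM (SD, *n* = 3), and the gene was 4.15-fold lower in infarcts (log2 fold change -2.05 ± 0.27 SE; edgeR adjusted *p* = 1.47e-04). Summed neuron markers were ordered across the infarcts as *Tyro3* was, lowest in infarct 1 and highest in infarct 3. Summed markers of astrocytes (4643, 4941, and 6683 CPM) and oligodendrocytes (4111, 4735, and 6704 CPM) had the same order in infarcts 1, 2, and 3. The part of any of these cell types in the *Tyro3* difference was not tested.

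The sequences just upstream of these genes are shown because the 3 receptors share ligands yet differed in opposite directions. They are from RefSeq (GRCm38.p6), 5′ to 3′ on the strand of the gene, and end at the base before the annotated start. Capitals mark the GC box GGGCGG, which Sp-family factors bind, and the core GAGGAA of the myeloid factor PU.1, on either strand. *Axl* is at chr7:25788734-25788983 (minus strand), *Mertk* at chr2:128698665-128698914 (plus), *Tyro3* at chr2:119799416-119799513 (plus, shortened because the bases before it are exonic in GENCODE M21), *Gas6* at chr8:13494536-13494785 (minus), and *Pros1* at chr16:62854057-62854306 (plus).
Axl: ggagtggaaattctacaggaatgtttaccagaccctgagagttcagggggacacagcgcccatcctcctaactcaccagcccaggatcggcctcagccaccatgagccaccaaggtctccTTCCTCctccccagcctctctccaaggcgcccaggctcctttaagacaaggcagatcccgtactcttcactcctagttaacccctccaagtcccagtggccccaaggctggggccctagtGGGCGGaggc
Mertk: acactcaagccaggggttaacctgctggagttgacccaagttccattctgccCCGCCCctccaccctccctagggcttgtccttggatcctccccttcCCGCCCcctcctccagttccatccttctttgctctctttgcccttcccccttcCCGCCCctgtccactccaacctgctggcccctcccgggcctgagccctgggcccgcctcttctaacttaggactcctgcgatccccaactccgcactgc
Tyro3: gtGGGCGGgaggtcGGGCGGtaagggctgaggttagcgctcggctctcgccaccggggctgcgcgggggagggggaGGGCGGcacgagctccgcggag
Gas6: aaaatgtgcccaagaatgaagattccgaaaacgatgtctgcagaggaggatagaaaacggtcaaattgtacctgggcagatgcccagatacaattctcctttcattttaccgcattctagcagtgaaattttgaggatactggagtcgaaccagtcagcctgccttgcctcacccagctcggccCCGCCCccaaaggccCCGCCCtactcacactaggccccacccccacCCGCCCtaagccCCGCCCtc
Pros1: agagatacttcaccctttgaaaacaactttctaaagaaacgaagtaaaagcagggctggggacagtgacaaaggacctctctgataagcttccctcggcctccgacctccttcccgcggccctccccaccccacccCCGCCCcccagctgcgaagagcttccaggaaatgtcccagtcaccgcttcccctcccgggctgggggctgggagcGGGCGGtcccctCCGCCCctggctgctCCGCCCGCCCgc

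The 250 bases before the start were searched for 8 of the 10 genes, those with an entry in the RefSeq table. The exceptions were *Megf10* and *Adgrb1*. A GC box was found in 6 of 8 (*Axl*, *Mertk*, *Tyro3*, *Gas6*, *Pros1*, and *Mfge8*), beside 32.7% of the 32817 promoters of the table, and it was found both in genes that were higher and in *Tyro3*, which was lower. The bases of these 6 were 54.8% to 73.2% G or C, beside a median of 52.4% over all promoters. Promoters of equal G and C content were not compared. *Mertk* and *Tyro3* each held 3 GC boxes, *Gas6* held 4, and *Axl* held 1 that began 10 bases before the start. The PU.1 core was found in *Axl* and *Mfge8*, 2 of 8, beside 23.3% of promoters. The AP-1 site TGANTCA was in 0 of 8 and in 6.75% of promoters. These are matches of letters in a short window and do not show binding.

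The balance among the 3 receptors also differed between regions. On the TPM scale, *Axl* made up 77.4%, 77.5%, and 75.9% of the summed TAM receptor level in infarcts 1, 2, and 3, against 44.0%, 43.5%, and 47.1% in contralateral cortices. *Axl* was thus the leading TAM transcript in all 6 libraries, but by a wider margin in infarcts. The means were 76.9 ± 0.893% and 44.9 ± 1.96% (SD, *n* = 3), a difference of 32.1 percentage points (two-sided exact permutation *p* = 0.1). *Tyro3* made up 0.726%, 1.42%, and 2.15% in infarcts against 22.2%, 23.4%, and 24.5% in contralateral cortices (two-sided exact permutation *p* = 0.1). *Mertk* contributed 21.6 ± 0.462% in infarcts against 31.7 ± 2.96% in contralateral cortices (SD, *n* = 3), so that its share was lower although its level was higher. With 3 libraries against 3, 0.1 is the smallest *p* that an exact permutation test can give.

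The ratio of *Axl* to *Tyro3* on the TPM scale was 107, 54.5, and 35.4 in infarcts but 1.98, 1.86, and 1.92 in contralateral cortices. The infarcts thus spread widely around a high ratio, whereas the contralateral cortices were nearly identical. Summed over the 3 receptors, the level was 729, 639, and 629.7 TPM in infarcts against 166, 136, and 162 TPM in contralateral cortices, 4.31-fold higher in infarcts.

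**Figure D2:**
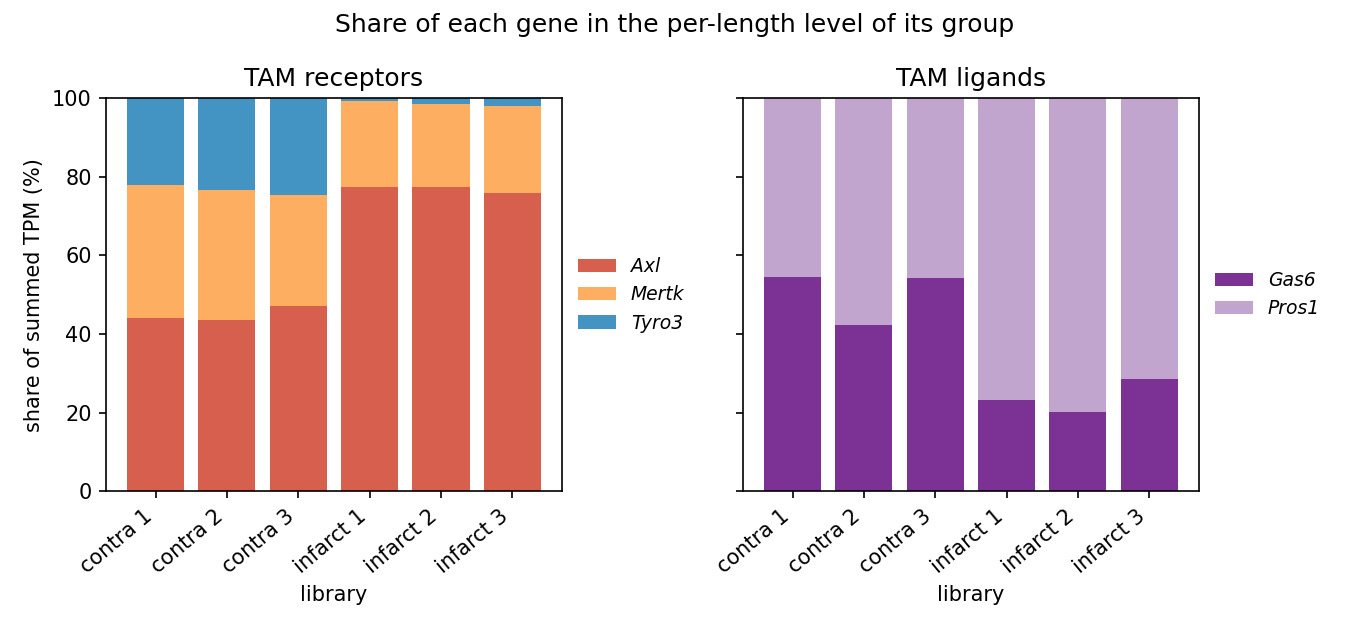
Share of each gene in the summed TPM of the TAM receptors (left, *Axl*, *Mertk*, and *Tyro3*) and of the TAM ligands (right, *Gas6* and *Pros1*), with 1 bar for each library and 100% as the full bar. In contralateral cortices *Tyro3* holds 22.2% to 24.5% of the receptor level and *Gas6* 42.2% to 54.6% of the ligand level, and both shares are smaller in every infarct.

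Both TAM ligands were higher in infarcts. *Gas6* (chr8:13465374-13494490, minus strand), which encodes a vitamin K-dependent ligand of all 3 receptors, had 90.1, 52.6, and 78.1 CPM in infarcts 1, 2, and 3 against 23.2, 19.1, and 26.1 CPM in contralateral cortices. The lowest infarct was still above the highest contralateral cortex. The log2 fold change was 1.69 ± 0.22 (SE; edgeR adjusted *p* = 1.05e-04), or 3.23-fold. A stretch of 1.33% of the exonic bases of *Gas6* is shared with *Tmem255b* on the other strand.

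*Pros1* (chr16:62854307-62929346, plus strand) encodes protein S, an anticoagulant of plasma that also activates MERTK and TYRO3. It had 477, 333, and 315 CPM in infarcts against 31.0, 41.9, and 35.4 CPM in contralateral cortices, so that even the lowest infarct was far above the contralateral range. Mean levels were 375 ± 88.8 and 36.1 ± 5.48 CPM (SD, *n* = 3), which is 10.4-fold (log2 fold change 3.38 ± 0.21 SE; edgeR adjusted *p* = 1.01e-06). Of the genes with at least 10 counts in every library, *Pros1* had the largest log2 fold change in the group.

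In contralateral cortices the pair of ligands stood at about equal TPM, and in infarcts *Pros1* dominated. *Gas6* made up 23.3%, 20.2%, and 28.5% of the summed ligand TPM in infarcts 1, 2, and 3, against 54.6%, 42.2%, and 54.2% in contralateral cortices. The means were 24.0 ± 4.18% and 50.3 ± 7.03% (SD, *n* = 3), a difference of -26.4 percentage points (two-sided exact permutation *p* = 0.1). Summed ligand levels were 585, 447, and 475 TPM in infarcts against 69.3, 72.4, and 72.3 TPM in contralateral cortices, 7.04-fold higher in infarcts.

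*Mfge8* (chr7:79133768-79149060, minus strand), whose product links phosphatidylserine to αv integrins, had 622, 439.7, and 474 CPM in infarcts against 64.1, 55.9, and 77.4 CPM in contralateral cortices. All infarcts were several times above all contralateral cortices. The log2 fold change was 2.96 ± 0.20 (SE; edgeR adjusted *p* = 1.55e-06), or 7.78-fold. The integrin subunits that receive this bridge did not share a pattern. *Itgav*, the αv subunit, had 449 ± 64.6 CPM in infarcts against 444 ± 54.5 CPM in contralateral cortices (SD, *n* = 3) and was not called (log2 fold change 0.01 ± 0.17 SE; edgeR adjusted *p* = 0.945). Its partners *Itgb3* and *Itgb5* were called higher, with log2 fold changes of 2.29 ± 0.23 and 3.21 ± 0.21 (SE; edgeR adjusted *p* = 1.65e-05 and 1.20e-06). *Edil3*, the paralog of *Mfge8* that encodes the other integrin bridge of this type, had a log2 fold change of -0.91 ± 0.17 (SE; edgeR adjusted *p* = 1.06e-03), short of the fold threshold, which it passed without contralateral cortex 1 (-1.04).

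*Stab2* (chr10:86841198-87008025, minus strand) encodes stabilin-2, a scavenger receptor for phosphatidylserine and hyaluronan known from sinusoidal and lymphatic endothelium. It had 227, 197, and 125 counts in infarcts 1, 2, and 3 against 6, 8, and 10 counts in contralateral cortices, or 18.1, 14.5, and 8.53 CPM against 0.313, 0.521, and 0.923 CPM. It was thus near the detection limit in contralateral cortices and plainly present in all infarcts, most in infarct 1. The log2 fold change of 4.62 ± 0.43 (SE; edgeR adjusted *p* = 1.16e-05) rests on 24 counts in the contralateral cortices together. The ratio of pooled rates was 29.1, with a 95% exact conditional interval of 19.4 to 45.9 that covers counting error only. An antisense gene, *Gm16268*, shares 1.61% of its exonic bases. *Stab1*, the paralog known from macrophages, was higher by a log2 fold change of 3.57 ± 0.21 (SE; edgeR adjusted *p* = 7.16e-07).

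Markers of lymphatic and sinusoidal endothelium gave a mixed picture beside *Stab2*. Of 6 markers, 4 were tested, of which *Flt4* and *Ccl21a* were called higher, *Reln* was called lower, and *Prox1* was not called (median log2 fold change 1.42). *Reln* and *Prox1* had mean levels of 166 and 32.2 CPM in contralateral cortices, against 3.93 for *Flt4* and 0.0615 for *Ccl21a*. Which cells of the cortex carried *Reln* and *Prox1* was not tested. The sinusoidal markers *Clec4g* and *Oit3* were near 0 and were not tested. Infarcts 1, 2, and 3 held 9, 10, and 22 *Oit3* counts against 0, 2, and 2 in the contralateral samples. For *Clec4g* the infarcts held 1, 0, and 0 against 4, 4, and 1, so these markers lay on opposite sides. *Reln* had the lowest log2 fold change at -2.08, and *Ccl21a* the highest, from 199 counts in infarcts against 2 in contralateral cortices. Markers of border and monocyte-derived macrophages summed to 1431, 867, and 674 CPM in infarcts 1, 2, and 3 against 26.7 to 32.5 CPM in contralateral cortices. In these sums *Cd5l* alone held 305 to 784 CPM in the infarcts. The part of either cell type in the *Stab2* difference was not tested.

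*Timd4* (chr11:46810800-46844332, plus strand), the phosphatidylserine receptor of many resident macrophages, was at 10, 5, and 4 counts in infarcts, and the contralateral cortices had 2, 1, and 1. It was thus at the limit of detection in both regions at this depth. Pooled over libraries these are 19 and 4 counts, a ratio of rates of 6.05 with a 95% exact conditional interval of 2.01 to 24.4 for counting error only. Without the filter on low counts it was not called (edgeR adjusted *p* = 0.0648). Of its relatives, *Havcr2*, which encodes TIM-3, was higher by a log2 fold change of 2.93 ± 0.18 (SE; edgeR adjusted *p* = 9.16e-07). *Havcr1* and *Timd2* were not tested and had 0 counts in all contralateral cortices. Their infarct counts lay mostly in infarct 1, with 72, 8, and 7 for *Havcr1* and 19, 2, and 0 for *Timd2* in infarcts 1, 2, and 3.

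*Adgrb1* (chr15:74516195-74589465, plus strand) encodes BAI1, an adhesion receptor that signals to the engulfment machinery and that neurons also carry at synapses. It had 25.9, 30.2, and 47.5 CPM in infarcts 1, 2, and 3 against 163, 175, and 155 CPM in contralateral cortices. All infarcts were far below all contralateral cortices, and the gene was 4.76-fold lower (log2 fold change -2.25 ± 0.22 SE; edgeR adjusted *p* = 1.79e-05). A miRNA gene, *Gm26117*, shares 1.32% of its exonic bases on the same strand. The paralogs *Adgrb2* and *Adgrb3* were also called lower, with log2 fold changes of -2.17 ± 0.52 and -2.26 ± 0.43 (SE; edgeR adjusted *p* = 8.78e-03 and 2.71e-03). Without infarct 3 these became -2.96 and -2.95, and without infarct 1 they became -1.79 and -1.96. Both calls were kept in each case. Within the infarcts *Adgrb1* had the order of the summed neuron, astrocyte, and oligodendrocyte markers, lowest in infarct 1 and highest in infarct 3. The part of these cell types was not tested.

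*Megf10*, the astrocyte receptor that engulfs synapses and debris, was the tested gene that differed least. It had 55.9, 56.2, and 64.4 CPM in infarcts against 45.9, 52.4, and 52.1 CPM in contralateral cortices. The infarcts were above the contralateral cortices by a narrow margin, and the log2 fold change of 0.23 ± 0.14 (SE) did not pass (edgeR adjusted *p* = 0.176). Astrocyte markers divided beside it: of 10 tested, 2 were higher, 3 were lower, and 5 were not called (median log2 fold change -0.43, from -2.79 for *Slc7a10* to 1.68 for *Aqp4*). Paralogs of *Megf10* differed from it and from each other. *Megf11* was lower (log2 fold change -2.50 ± 0.27 SE; edgeR adjusted *p* = 3.58e-05), *Pear1* was higher (3.53 ± 0.22 SE; edgeR adjusted *p* = 9.24e-07), and *Scarf1* had a log2 fold change of 0.82 ± 0.21 (SE; edgeR adjusted *p* = 6.97e-03) that fell short of the fold threshold.

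**Figure D3:**
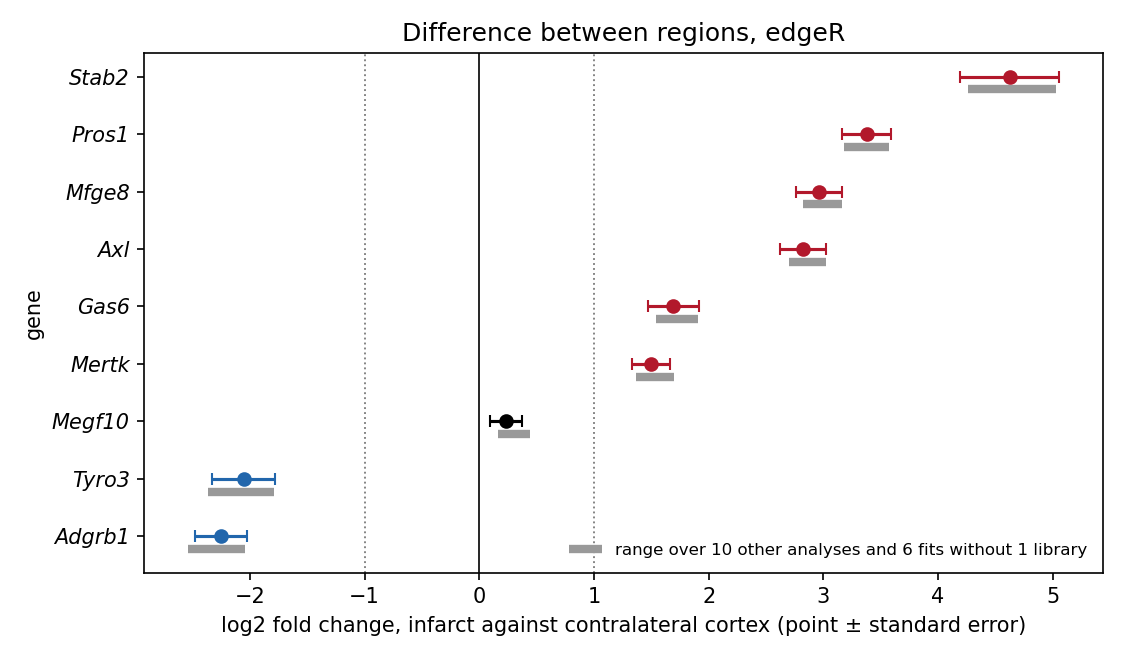
Log2 fold change of the 9 tested genes, infarct against contralateral cortex, from edgeR. Points with bars are the estimate ± SE, gray bars span 10 other analyses and 6 fits that each left out 1 library, and dotted lines mark the 2-fold threshold. *Stab2* lies at 4.62, *Adgrb1* at -2.25, and *Megf10* at 0.23.

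On the TPM scale, which allows genes of different length to be set side by side, the order within the group differed between regions. In infarcts it was *Axl* (513 ± 45.9 TPM, SD, *n* = 3), *Mfge8* (455 ± 50.4), *Pros1* (382 ± 58.7), *Mertk* (144 ± 13.3), *Gas6* (121 ± 26.2), *Megf10* (32.2 ± 4.47), *Adgrb1* (20.4 ± 7.83), *Tyro3* (9.30 ± 4.12), *Stab2* (6.50 ± 1.93), and *Timd4* (0.902 ± 0.451). The neighbors *Axl* and *Mfge8*, *Mfge8* and *Pros1*, *Mertk* and *Gas6*, *Megf10* and *Adgrb1*, and *Tyro3* and *Stab2* overlapped in their values across libraries. Within each infarct, however, the first gene of the pair was above the next in 3 of 3 libraries for these pairs other than *Tyro3* and *Stab2*, where it was above in 2 of 3. In contralateral cortices *Adgrb1* came first at 91.7 ± 8.62 TPM (SD, *n* = 3), free of overlap with *Axl* at 69.5 ± 9.09 TPM, and *Mfge8* and *Mertk* followed at 56.1 ± 7.24 and 49.0 ± 6.13 TPM. *Tyro3*, *Gas6*, and *Pros1* stood together at 36.2 ± 4.02, 35.9 ± 4.63, and 35.5 ± 5.57 TPM, and their values overlapped, with each above the next in 2 of 3 libraries. *Megf10* had 26.1 ± 1.56 TPM, and *Stab2* and *Timd4* were under 1 TPM. By the length of merged exons, *Adgrb1* was thus the first of the 10 genes in contralateral cortex and the seventh in infarcts, and *Pros1* went from the seventh to the third. This order can change with the length used. *Mfge8* has 4694 bases in merged exons but 2330 in its longest transcript, against 7222 and 6228 for *Adgrb1*. Ranks by the longest transcript were not computed.

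The 3 infarcts were not alike. Infarct 1 was the highest of the 3 for 7 genes (*Axl*, *Mertk*, *Gas6*, *Pros1*, *Mfge8*, *Stab2*, and *Timd4*), and infarct 3 was the highest for the other 3 (*Tyro3*, *Adgrb1*, and *Megf10*). Infarct 1 also had the highest marker sums of border and monocyte-derived macrophages, microglia, both endothelial lists, and pericytes and smooth muscle. It had the lowest sums of neuron, astrocyte, and oligodendrocyte markers, whereas the sum of fibroblast and leptomeningeal markers was highest in infarct 2. A large part of the macrophage sum was *Cd5l*, with 484 ± 261 CPM in infarcts (SD, *n* = 3). Of these macrophage markers, 7 of 10 were called higher, *Cd163* was not called, and *Vsig4* and *Marco* were not tested (median log2 fold change 3.95, lowest 0.46 for *Cd163* and highest for *Cd5l*, which had 9 contralateral counts). Markers of microglia were called higher for 4 of 8 (median log2 fold change 1.27, lowest -0.20 for *P2ry12*) and summed to between 913 and 942 CPM in infarcts against 299 to 347 CPM in contralateral cortices. Fibroblast and leptomeningeal markers were called higher for 8 of 8 (median log2 fold change 6.44, from 1.50 for *Slc6a13* to 7.35 for *Col3a1*) and summed to between 6990 and 8738 CPM in infarcts, with no overlap with the 158 to 200 CPM of contralateral cortices. Pericyte and smooth muscle markers were higher for 5 of 6 (median log2 fold change 1.64, from 0.53 for *Rgs5* to 2.59 for *Pdgfrb*). Blood endothelial markers were higher for 3 of 7 (median 0.63, from -0.14 for *Flt1* to 2.06 for *Cdh5*) and oligodendrocyte markers for 3 of 7 (median 0.99, from 0.52 for *Opalin* to 1.60 for *Mobp*), and the rest were not called. The part of these cell types in the differences described here was not tested.

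The wider clearance machinery was read from 10 lists with 87 other genes, chosen with earlier results of these data known. Their counts beside those of all genes are thus a description and not a test. Of the 87 genes, 82 were tested. Of these, 50 were called higher, 8 lower, and 24 neither, with a median log2 fold change of 1.71, beside 25.7% and 20.9% of all tested genes called in each direction. Some of these genes, such as *Cd300lb*, passed the filter on low counts only through the infarcts. When each of the 6 libraries had to hold 10 counts or more, 73 were tested, 41 were higher, and 8 were lower (median log2 fold change 1.22), beside 21.6% and 19.4% of all genes tested under that filter. Among 17 other receptors and bridging proteins of apoptotic cells, 16 were tested, 14 were higher, and 2 were not called (median log2 fold change 4.41). *C1qa*, *C1qb*, and *C1qc*, which encode the complement protein that opsonizes debris, were higher by log2 fold changes of 4.49 ± 0.23, 4.77 ± 0.21, and 4.32 ± 0.23 (SE; edgeR adjusted *p* at most 4.26e-07). *Lrp1* and *Calr*, a receptor and the "eat me" protein calreticulin, were higher by 1.72 ± 0.21 and 1.39 ± 0.22 on the log2 scale (SE; edgeR adjusted *p* = 7.12e-05 and 3.24e-04). *Itgav* was the lowest of this list, and *Cd300lb* the highest, with 3115 counts in infarcts against 2 in contralateral cortices. *Jmjd6* was not called, and *Ager* was not tested.

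Among 10 paralogs of the receptors and bridging proteins, 8 were tested, 3 were higher, 3 were lower, and 2 were not called (median log2 fold change -0.04, from -2.50 for *Megf11* to 3.57 for *Stab1*). The 10 genes of engulfment signaling, the route from receptor to actin, were all tested, with 3 higher, 1 lower, and 6 not called (median log2 fold change 0.38). *Rhog*, the highest of the list, and *Gulp1* were higher by 2.53 ± 0.19 and 2.21 ± 0.21 on the log2 scale (SE; edgeR adjusted *p* = 2.86e-06 and 1.27e-05). *Dock1*, the exchange factor for Rac in this route, was higher by 1.30 ± 0.14 (SE; edgeR adjusted *p* = 3.06e-05), whereas its partners *Elmo1* and *Elmo2* both had log2 fold changes of -0.60 ± 0.15 (SE; edgeR adjusted *p* = 6.03e-03 and 5.27e-03), short of the fold threshold. *Trio* was the lowest at -1.06 ± 0.15 (SE; edgeR adjusted *p* = 1.99e-04), a call lost without infarct 1 (-0.96) or without contralateral cortex 2 (-0.98).

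**Figure D4:**
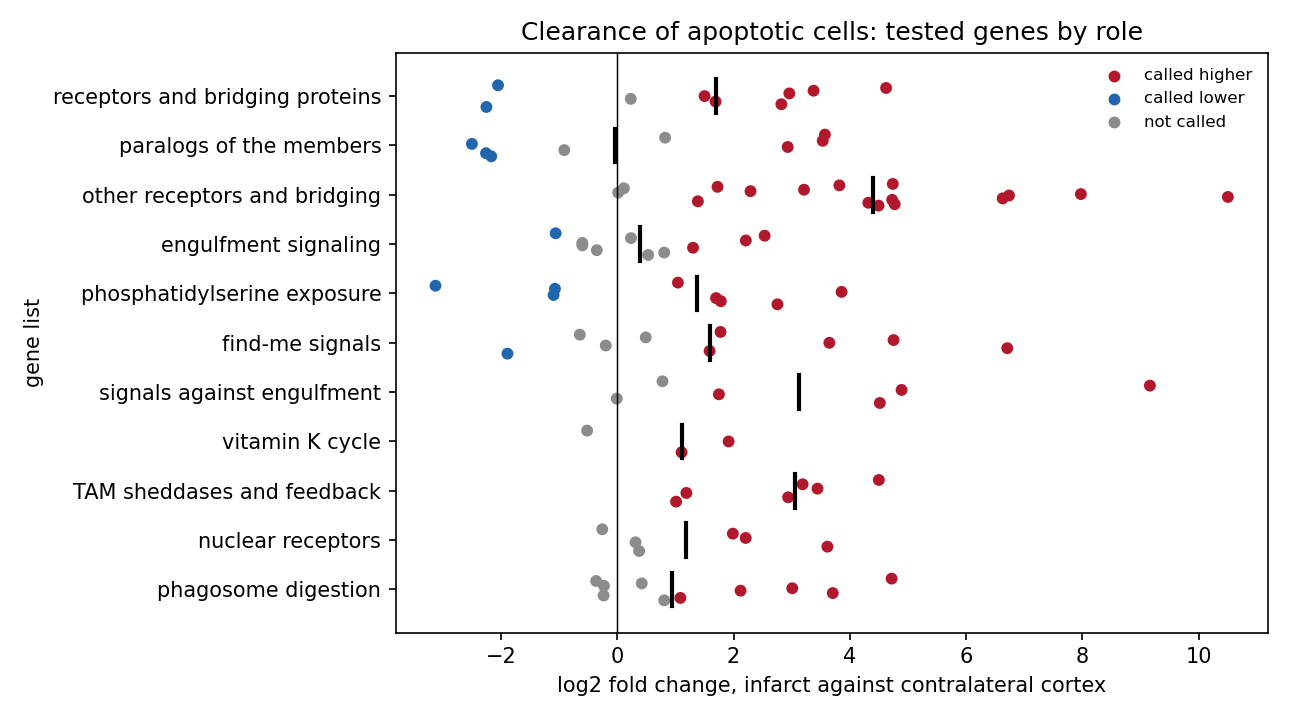
Log2 fold change of each tested gene of the efferocytosis group (top row) and of 10 lists of other clearance genes, infarct against contralateral cortex. Red and blue points were called higher and lower, gray points were not called, and vertical ticks are the medians of each list. The medians run from -0.04 for the paralogs to 4.41 for the other receptors and bridging proteins, and the 2 points farthest to the right, *Cd300lb* and *Siglecg*, rest on 2 and 0 contralateral counts.

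Genes that act on the TAM system itself were read in 2 lists. Of 7 sheddases and feedback genes, 6 were tested and 6 were higher (median log2 fold change 3.06), and *Socs1* was not tested. *Adam17* and *Adam10*, whose proteases cut MERTK and AXL from the cell surface, were higher by 2.94 ± 0.17 and 1.01 ± 0.15 on the log2 scale (SE; edgeR adjusted *p* = 6.14e-07 and 2.43e-04). *Adam10*, the lowest of the list, lay at the fold threshold and kept its call in 2 of 6 fits that left out 1 library, those without infarct 3 (1.11) and without contralateral cortex 2 (1.06), and it had 0.97 to 0.99 in the other 4. *Twist1* and *Socs3*, feedback genes downstream of TAM receptors, were higher by 4.50 ± 0.49, the highest of the list, and 3.44 ± 0.21 (SE; edgeR adjusted *p* = 3.43e-05 and 8.70e-07), and *Twist1* had 5.13 without contralateral cortex 1. Of the 3 genes of the vitamin K cycle, which carboxylates GAS6 and protein S, 2 were higher and 1 was not called (median log2 fold change 1.11). *Vkorc1* was higher by 1.92 ± 0.51 from 14 contralateral counts and *Ggcx*, the carboxylase, by 1.11 ± 0.18 (SE; edgeR adjusted *p* = 7.78e-03 and 5.09e-04). The call of *Ggcx* was lost without infarct 1 (0.97). *Vkorc1l1* was the lowest of the list, with a log2 fold change of -0.52 ± 0.13 (SE; edgeR adjusted *p* = 4.65e-03).

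The signal that the receptors read depends on enzymes that expose or hide phosphatidylserine. Of 9 such genes, 8 were tested, 5 were higher, and 3 were lower (median log2 fold change 1.37), and *Xkr9* was not tested. The scramblase genes *Plscr1*, the highest of the list, and *Ano6* were higher by 3.86 ± 0.26 and 2.76 ± 0.18 on the log2 scale (SE; edgeR adjusted *p* = 1.44e-06 and 1.14e-06). *Xkr8*, which encodes the scramblase that caspases activate, was higher by 1.04 ± 0.29 (SE; edgeR adjusted *p* = 0.0107), a call lost without infarct 1 (0.84), contralateral cortex 1 (0.86), or contralateral cortex 3 (0.99). Flippases, which return the lipid to the inner surface, divided: *Atp11a* was higher by 1.78 ± 0.14 (SE; edgeR adjusted *p* = 4.60e-06), whereas *Atp8a1* and the chaperone *Tmem30a* were lower, with log2 fold changes of -1.10 ± 0.15 and -1.07 ± 0.16 (SE; edgeR adjusted *p* = 1.21e-04 and 2.38e-04). *Xkr4*, a relative of *Xkr8* known from the brain, was the lowest at -3.13 ± 0.53 (SE; edgeR adjusted *p* = 1.63e-03). It had -3.96 without infarct 3 and -2.71 without infarct 2.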

How the data were processed

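The authors trimmed reads of stranded mRNA libraries with Trimmomatic 0.32, aligned them to GRCm38 with STAR 2.5.2b and counted them with HTSeq, and the deposited tables hold raw counts per Ensembl gene without normalization. The annotation and strand setting of the counting are not given in the sources used here. Each table ends with 5 tallies of reads assigned to no gene, which were left out. They were 26.6% to 28.2% of the tallied reads in infarcts and 32.0% to 34.3% in contralateral cortices, so the regions did not overlap. Symbols, positions, and exon lengths came from GENCODE M21, which holds 45229 of the identifiers and lacks 849.

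Counts were filtered (filterByExpr), scaled by TMM, and tested with edgeR 4.0.16 in R 4.3.3 (glmQLFit and glmQLFTest, robust) with region as the only term. *p* values were adjusted by Benjamini-Hochberg over 15554 genes. SE was derived from the test, as the absolute log2 fold change divided by the square root of the quasi-likelihood F statistic. TPM used the summed length of merged exons. Shares of TPM were compared by two-sided exact permutation tests in SciPy 1.17.1. Alternatives used DESeq2 1.42.0, limma voom 3.58.1, other scalings, filters and thresholds, a replicate block, and each library left out in turn. Of these fits, only the main edgeR fit was run on simulated counts. A far smaller part of the genes was changed there than was called here, so that run cannot judge the scaling of these data. The genes and lists were chosen with earlier results of these data known, and every gene of a list could be named, with the count, the median, the lowest, and the highest gene of its list. Some genes of these lists are not reported here by name. No label says that the 3 samples of a region came from separate mice, so *p* values measure the spread between samples.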

Additional observations from a re-analysis of the deposited data

How the results depend on the processing

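Over the 9 tested efferocytosis genes, 143 of 143 comparisons with another setting kept the direction and the side of the threshold, with the number called higher between 5 and 6 and the number called lower at 2. The settings with no fold threshold and with glmTreat kept the log2 fold changes of the main fit, so direction could not change there. *Stab2* gave no value where at least 10 counts were required in every library. Without each library in turn, the log2 fold change ranged from 2.70 to 2.93 for *Axl*, from 3.18 to 3.50 for *Pros1*, from 4.26 to 5.03 for *Stab2*, from -2.37 to -1.79 for *Tyro3*, and from -2.54 to -2.06 for *Adgrb1*. Over all alternatives, genes called in the whole table ranged from 2789 to 5324 higher and from 2329 to 4787 lower. Library totals in place of TMM moved the log2 fold change by 0.20 at the median over the whole table. The number of other clearance genes called lower was 8 and became 5 with library totals, 5 with glmTreat against a 2-fold change, and 14 with no fold threshold. The last 2 thresholds by their construction admit fewer and more genes. Of the 8, *Trio*, *Tmem30a*, and *Atp8a1* lay nearest the threshold, with log2 fold changes of -1.06, -1.07, and -1.10. Their highest values over the 10 other analyses were -0.85, -0.87, and -0.89. Shares of TPM kept their direction with the longest transcript as the length, with no length correction, and without each library. The difference then ranged from 31.4 to 34.6 percentage points for *Axl*, from -26.7 to -21.4 for *Tyro3*, and from -30.4 to -22.4 for *Gas6*. Exact permutation tests of 3 libraries against 3 cannot pass 0.05 and say nothing about stability.

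Whether same-numbered samples shared a mouse is not known. The deviations of same-numbered infarcts and contralateral cortices correlated at -0.19, 0.10, and 0.00 across genes. Differently numbered pairs ran from -0.24 to 0.18, so these values cannot decide the pairing. With the replicate block, 3945 genes were called higher and 3222 lower, and the efferocytosis genes still gave 6 and 2, so the block changed none of their calls. The share differences had an exact paired *p* of 0.25. Depth limits *Timd4*, with 23 counts in the 6 libraries. The bound for *Siglecg* was 71.2-fold with a floor of 1 count per library in place of 3.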

Other observations

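Genes that call phagocytes toward dying cells or hold them off were read in 2 further lists. Of 9 find-me signals and their receptors, 9 were tested, 5 were higher in infarcts, 1 was lower, and 3 were not called (median log2 fold change 1.59). The receptors *Gpr132*, for lysophosphatidylcholine, and *P2ry6*, for UDP, were higher by 6.71 ± 0.45, the highest of the list, and 4.75 ± 0.29 on the log2 scale (SE; edgeR adjusted *p* = 1.43e-06 and 7.95e-07), the former from 9 contralateral counts and with 6.12 without contralateral cortex 1 and 7.62 without contralateral cortex 2. Ligand and receptor of the fractalkine pair went apart: *Cx3cr1* of the phagocyte was higher by 1.59 ± 0.16, and *Cx3cl1* of the neuron was the lowest, with a log2 fold change of -1.89 ± 0.19 (SE; edgeR adjusted *p* = 2.00e-05 and 1.60e-05). Of 6 signals against engulfment, 4 were higher and 2 were not called (median log2 fold change 3.13). *Cd47*, the "don't eat me" signal, had 328 ± 29.3 CPM in infarcts against 330.2 ± 49.2 CPM in contralateral cortices (SD, *n* = 3) and was the lowest of the list, with a log2 fold change of -0.01 ± 0.16 (SE; edgeR adjusted *p* = 0.964), whereas its receptor *Sirpa* had 0.78 ± 0.15 (SE; edgeR adjusted *p* = 1.37e-03), short of the fold threshold. The sialic acid receptor *Siglecg*, the highest of the list, had 204 counts in infarcts and 0 in contralateral cortices, at least 23.7-fold higher with a floor of 3 counts in each contralateral library. Its ligand *Cd24a* was higher by 4.52 ± 0.28 on the log2 scale (SE; edgeR adjusted *p* = 8.70e-07).

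Genes that act after uptake were read in another pair of lists. Of 6 nuclear receptors of the phagocyte, which sense ingested lipid and are known to induce *Mertk*, 3 were higher and 3 were not called (median log2 fold change 1.18, from -0.26 for *Rxrb* to 3.61 for *Nr1h3*). *Nr1h3*, which encodes LXRα, was higher by 3.61 ± 0.27, *Pparg* by 2.21 ± 0.29, and *Rxra* by 1.99 ± 0.14 (SE; edgeR adjusted *p* at most 1.06e-04), while *Nr1h2*, which encodes LXRβ, had 0.38 ± 0.20 (SE; edgeR adjusted *p* = 0.131). Of 10 genes of phagosome digestion, 5 were higher and 5 were not called (median log2 fold change 0.95, from -0.36 for *Rubcn* to 4.72 for *Ucp2*). *Dnase2a*, the nuclease that degrades DNA of engulfed cells, was higher by 3.71 ± 0.22 on the log2 scale (SE; edgeR adjusted *p* = 6.69e-07).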
